A study of Mus musculus with 29 samples.

Results

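Mitosis is carried out by a machinery that is made anew in each cell cycle. Cyclins switch on the kinase Cdk1, kinesins and microtubule partners build the spindle, kinetochores tie chromosomes to it, and the anaphase-promoting complex (APC) ubiquitin ligase then destroys securin and the cyclins so that sister chromatids separate. Because most of these transcripts are made from late S phase to mitosis and removed soon after, their level in a tissue is widely used as a measure of how many cells are dividing. Mad2 belongs to the spindle checkpoint, which holds the APC back until all chromosomes are attached.

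The genes described here are 60 listed mitosis genes in mouse lung and lung tumours, chosen by name, in 9 roles: mitotic kinases and cyclins, transcription factors of mitotic genes, kinesins, centromere and kinetochore proteins, partners of the chromosomal passenger complex, cohesion, the APC, condensin and chromosome structure, and spindle assembly with cytokinesis. For 59 of the 60 a probe set was annotated, of 18193 genes with a probe set in all; the expression of Ccnb1 was not analysed here. The current names of Sgol1 and Sgol2 are Sgo1 and Sgo2a. Each gene is represented by the probe set with the highest mean, since 40 members have several and 19 have 1.

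The series holds 29 arrays of total RNA from mice of mixed 129/Bl6 background, with ages not given in the labels. All mice carry CCSP-rtTA, a tetracycline-dependent activator under the promoter of a club cell secretory protein gene, so transgenes under the TRE element respond in airway epithelium. The groups are 8 primary lung tumours with TRE-KrasV12 (TI-K), 14 primary tumours with TRE-KrasV12 and TRE-Mad2 (TI-KM), 6 tumours of the latter genotype that are labelled recurrences, and 1 normal lung with CCSP-rtTA alone. The labels call the tumour tissue adenocarcinoma or adenoma, and the series title places relapse after withdrawal of the oncogene. The labels do not say whether arrays of a group came from different mice, so p-values measure the spread between these arrays, and 2 TI-KM arrays share a title number. The alveolar type II marker list summed to 73135 to 174624 in the tumours, and no marker of it was below the offset of 20 in all of them.

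Many promoters of mitosis genes hold a CHR element (TTTGAA or TTCGAA), read by the DREAM and MuvB complexes, and CCAAT boxes, bound by NF-Y. Promoters from RefSeq (GRCm38.p6; 250 bases before and 50 after the start) were matched by symbol for 49 members, which have 54 listed starts. Either CHR sequence stood on either strand of 36 of the 54, or 66.7%, against 19.2% of all 32851 promoters of the same length. CCAAT stood in 74.1% of them against 37.4%, and both motifs together in 55.6% against 7.52%. The motifs were matched as letters, and no binding was measured. The sequences below belong to the 3 members that followed the rest of the list most closely from tumour to tumour (Kif22, Cdca8 and Top2a) and to Ccnb2, whose CCAAT boxes are evenly spaced. They are printed on the gene's strand from 5′ to 3′, with every CHR or CCAAT match, or its reverse complement, in capitals.
Kif22: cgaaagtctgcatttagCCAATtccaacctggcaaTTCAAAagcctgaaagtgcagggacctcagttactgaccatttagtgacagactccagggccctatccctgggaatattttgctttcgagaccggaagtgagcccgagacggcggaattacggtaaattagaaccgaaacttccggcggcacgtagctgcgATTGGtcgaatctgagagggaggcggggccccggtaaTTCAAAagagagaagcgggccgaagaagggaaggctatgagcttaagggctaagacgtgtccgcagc
Cdca8: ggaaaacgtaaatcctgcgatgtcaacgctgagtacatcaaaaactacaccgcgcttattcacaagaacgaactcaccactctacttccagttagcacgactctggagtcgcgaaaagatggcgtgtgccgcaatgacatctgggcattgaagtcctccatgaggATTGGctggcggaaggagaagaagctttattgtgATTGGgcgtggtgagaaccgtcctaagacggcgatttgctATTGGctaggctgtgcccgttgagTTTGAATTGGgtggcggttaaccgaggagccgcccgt
Top2a: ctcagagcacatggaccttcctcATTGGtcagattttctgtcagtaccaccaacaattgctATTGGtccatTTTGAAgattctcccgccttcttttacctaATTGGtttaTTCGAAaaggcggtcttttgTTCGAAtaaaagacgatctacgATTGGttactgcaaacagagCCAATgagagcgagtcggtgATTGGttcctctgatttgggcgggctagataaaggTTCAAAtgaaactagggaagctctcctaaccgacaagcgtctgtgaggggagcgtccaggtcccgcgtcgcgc
Ccnb2: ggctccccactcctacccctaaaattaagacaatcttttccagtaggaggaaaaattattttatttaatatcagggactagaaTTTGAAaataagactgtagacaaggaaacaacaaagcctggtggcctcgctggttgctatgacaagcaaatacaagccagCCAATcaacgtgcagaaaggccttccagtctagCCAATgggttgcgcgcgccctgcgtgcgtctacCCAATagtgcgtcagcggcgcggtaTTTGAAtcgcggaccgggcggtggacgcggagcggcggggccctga
These promoters lie on the minus strand at chr7:127042371-127042670 (Kif22), chr4:124936868-124937167 (Cdca8), chr11:99024140-99024439 (Top2a) and chr9:70421505-70421804 (Ccnb2). Cdca8 encodes a passenger complex subunit, Kif22 a kinesin that binds chromosome arms, Top2a the topoisomerase that untangles sister DNA, and Ccnb2 a B-type cyclin. In Ccnb2 the CCAAT boxes begin at positions -87, -54 and -21, with the start site as 0, and a CHR sequence begins at 4. Top2a holds 4 CHR and 6 CCAAT matches.

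Mad2l1, which encodes Mad2, checks the labels of the primary tumours with TRE-Mad2. Its 1 probe set had signals of 573 to 1478 in TI-K primaries (median 871), 492 to 1271 in TI-KM primaries (median 730) and 437 to 1845 in recurrences (median 611), with 340 in normal lung. The groups overlapped, and the medians of both groups with TRE-Mad2 lay below that of TI-K. The log2 difference was -0.29 ± 0.22 (SE; limma adjusted p = 0.399) for TI-KM minus TI-K primaries and -0.25 ± 0.27 (SE; limma adjusted p = 0.523) for recurrences minus TI-K primaries, so this probe set showed no excess of Mad2 RNA in the tumours labelled as carrying the transgene. The labels do not say which part of the gene the transgene holds, and whether the probe set covers that part was not tested. The series title places relapse after withdrawal of the oncogene, which is under TRE as Mad2 is. Whether TRE-Mad2 was active in the recurrences was not tested, so their values are no check of the label. Below, each group is named by its label.

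The per-array module mean is the mean of log2(signal + 20) over the 59 members. Over all arrays it was nearly the same in the 3 tumour groups and higher than in normal lung. It was 7.96 ± 0.28 (SD, n = 8) in TI-K primaries, with a lowest value of 7.65, a median of 7.88 and a highest of 8.43. TI-KM primaries had 7.83 ± 0.31 (SD, n = 14), from 7.26 over a median of 7.81 to 8.43. The recurrences had 7.96 ± 0.74 (SD, n = 6), from 7.13 over a median of 7.83 to 9.23, and the single normal lung had 6.67. The tumour groups overlapped throughout, and every tumour lay above the normal lung. TI-KM primaries were 0.12 lower than TI-K primaries (SE 0.13), and the recurrences were 0.12 above TI-KM primaries (SE 0.31). Within 1 set of arrays, described below, the differences from TI-K primaries were -0.27 for TI-KM primaries and -0.26 for recurrences. In bulk tissue, fewer dividing cells and less of these RNAs per cell cannot be told apart. No p is given for this mean, because the list was chosen with results of these data known.

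**Figure D1:**
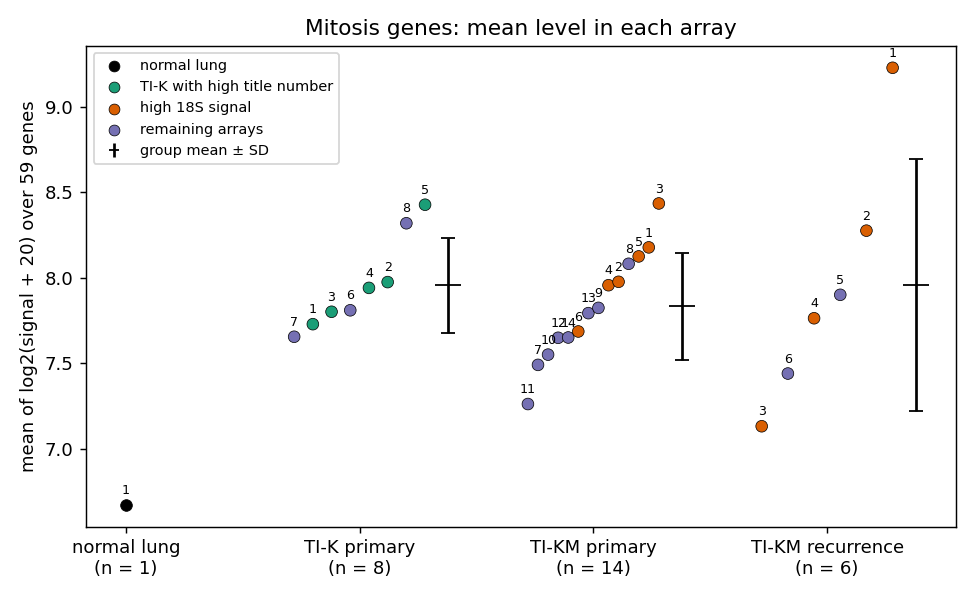
Module mean of the 59 mitosis genes in each array (vertical axis, mean log2(signal + 20)) by group, with the group mean and SD and colours for the 3 sets of arrays. The 6 recurrences span 7.13 to 9.23, a wider range than the 14 TI-KM primaries at 7.26 to 8.43, and the normal lung lies at 6.67.

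The recurrences differed among themselves more than the primaries did, mainly through recurrences 1 and 3. Their module means were 9.23 in recurrence 1, 8.28 in recurrence 2, 7.90 in recurrence 5, 7.76 in recurrence 4, 7.44 in recurrence 6 and 7.13 in recurrence 3, a span of 2.10 on the log2 scale or 4.28-fold. Recurrence 1 was the highest and recurrence 3 the lowest of all 28 tumours. The other recurrences lay within the TI-KM range of 7.26 to 8.43. Of the 59 members, 40 had their highest tumour value in recurrence 1 and 27 their lowest in recurrence 3. TI-KM primary 11 held the lowest value of another 12. Recurrence 1 stood 2.63-fold above the TI-KM mean, with 57 of 59 members over their TI-KM median, and recurrence 3 stood at 0.615 times that mean, with 11 of 59 members over it.

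The spread was larger gene by gene as well. The median SD over the 59 members was 0.44 in TI-K, 0.51 in TI-KM and 0.84 in the recurrences on the log2 scale, beside 0.34, 0.47 and 0.51 over all 14602 genes fitted. For 50 of 59 members the SD was larger in the recurrences than in TI-KM primaries, as it was for 58.1% of all genes, and for 37 it was at least 1.5 times as large, against 23.7% of all genes. Without recurrence 1 these counts were 42 (49.8% of all genes) and 18 (16.8%), and the SD of the module mean in the recurrences fell from 0.74 to 0.44. By role, the span over recurrences ran from 1.78 for the transcription factors to 3.11 for the passenger complex partners.

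Single genes show how far apart recurrences 1 and 3 were. Mki67, the proliferation marker Ki-67 that coats mitotic chromosomes, ranged from 706 over a median of 1043 to 2381 in TI-K, from 378 over 821 to 1437 in TI-KM, and from 188 over 662 to 4127 in the recurrences, with 365 in normal lung. Recurrence 3 was below the normal lung, as was 1 other recurrence, and recurrence 1 exceeded every primary tumour. Kif22 ranged from 705 to 1878 in TI-K (median 989), from 644 to 2741 in TI-KM (median 1213) and from 294 to 6928 in the recurrences (median 1044), beside 440 in normal lung. Cdk1, the kinase that drives entry into mitosis, was at 32.4 in recurrence 3 and at 140 to 953 in the 22 primaries. Ccnb2, one of its cyclin partners, was at 35.5 there against 195 to 723 in the primaries. Both values in recurrence 3 lay below those of the normal lung, which were 53.6 for Cdk1 and 78.9 for Ccnb2.

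**Figure D2:**
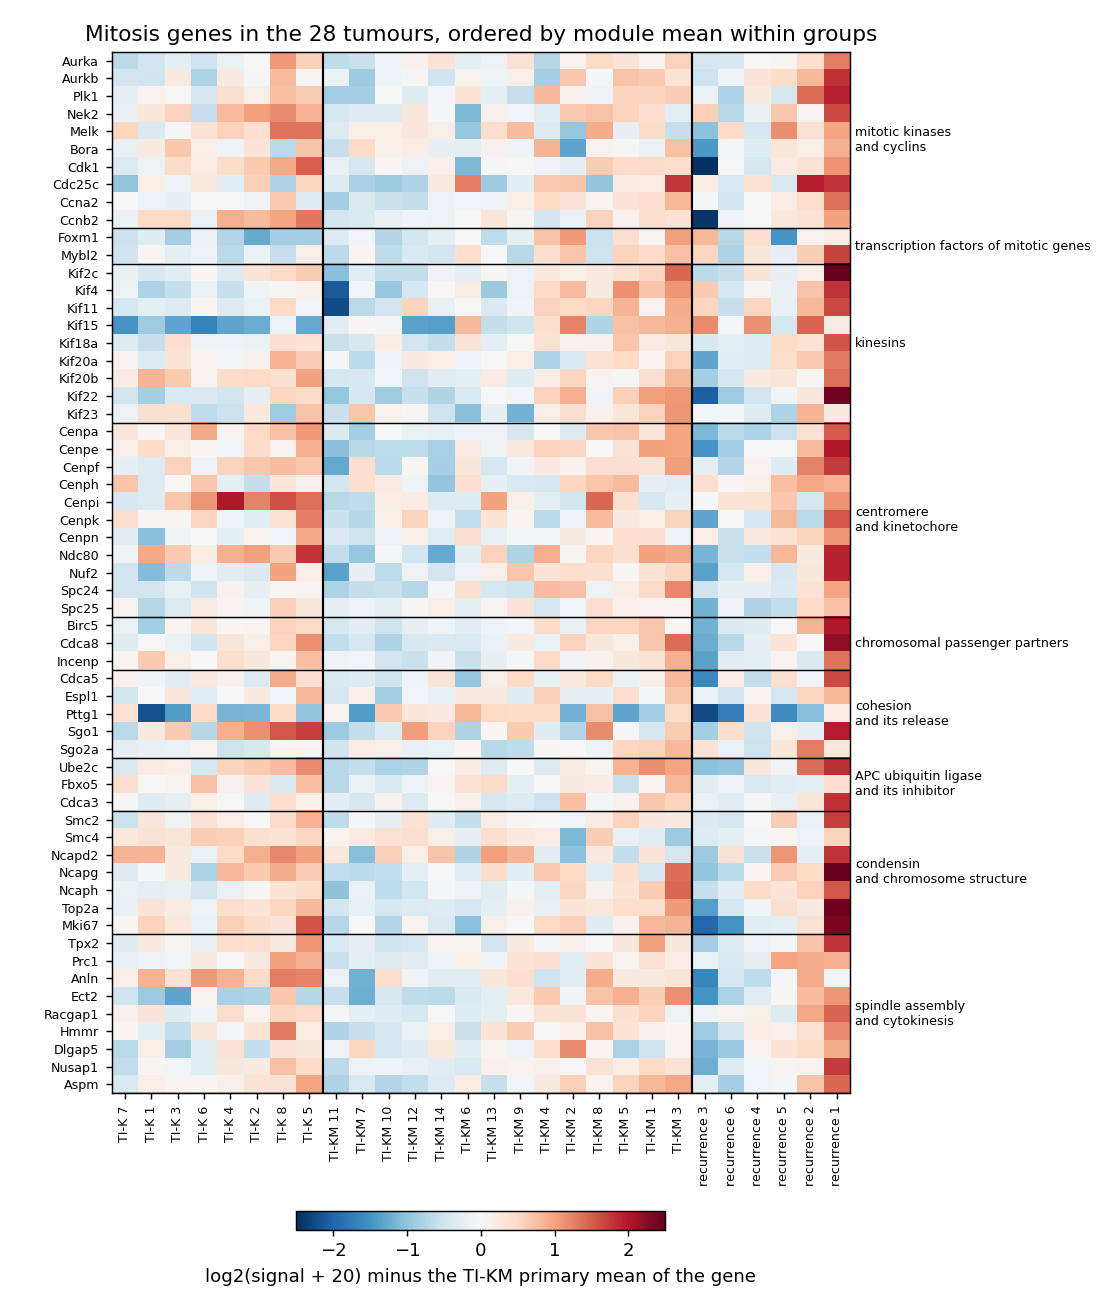
Heat map of the 59 mitosis genes (rows, by role) in the 28 tumours (columns, ordered by module mean within each group), coloured by log2(signal + 20) minus the gene's TI-KM mean. The columns of recurrence 1 and recurrence 3 form the 2 extremes, while Kif15, Foxm1, Pttg1 and Smc4 do not follow the order of the columns.

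Sums of cell type markers also differed between the recurrences. In recurrence 1 the T and NK cell list (8 of 10 genes with a probe set) summed to 6567; the sums were 263 to 1138 in TI-K primaries, and TI-KM primaries had 369 to 1666. Its B and plasma cell list (7 of 8 genes) summed to 82793, beside 4688 to 29077 and 4898 to 37272. Its epithelial list (7 of 7) was the lowest of the 28 tumours at 18699 (TI-K primaries 35444 to 62922, TI-KM primaries 44538 to 64147), as was its alveolar type II list (9 of 10) at 73135. The macrophage, endothelial, fibroblast and erythroid sums of recurrence 1 each ranked 5 among the 28 tumours, counted from the highest. Recurrence 3 had the highest epithelial sum, 74950, and the lowest macrophage and fibroblast sums, 35450 and 5625. Its alveolar type II sum, 119832, ranked only 25. The epithelial sum of recurrence 2, whose module mean was the second highest of the recurrences, was 72599.5 and thus also above every primary tumour. No marker of these lists was below the offset in all tumours. The part of these cell types in the module mean was not tested.

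The members moved together from tumour to tumour. After group means were subtracted, the correlation of a member with the mean of the other 58 had a median of 0.753 over the 28 tumours, against 0.116 for the 14545 other genes with the module mean. It was above 0.5 for 47 of 59 members and above 0.7 for 35, and without recurrence 1 the median was 0.652, with 42 and 26 members above those values. These correlations describe arrays that share 1 scaling, and they have no p. The members with the highest values were Kif22 (0.946), Cdca8 (0.931), Top2a (0.930), the spindle protein Nusap1 (0.924) and the microtubule-depolymerising kinesin Kif2c (0.923). At the other end stood the condensin subunit Smc4 (0.018), the transcription factor Foxm1 (0.138), the kinesin Kif15 (0.181), the securin gene Pttg1 (0.230), the kinetochore gene Cenph (0.236) and the cytokinesis kinesin Kif23 (0.303). This end depended on the sets of arrays described below. With set means within groups subtracted, these 6 were at 0.382, -0.346, -0.250, 0.377, 0.207 and 0.191, and the median of the members was 0.817. Melk then went from 0.404 to 0.842 and Ncapd2 from 0.337 to 0.681. The 28 members whose promoter holds both motifs had a median correlation of 0.758, and the 8 with neither had 0.843. With the CHR alone as the criterion, the 34 members that hold it had 0.758 and the 14 without it 0.6245.

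The 8 genes outside the list with the highest correlation with the module mean were Uhrf1 (0.891), a reader of hemimethylated DNA, Pclaf (0.880), a PCNA partner, Cep55 (0.874), needed for abscission, Bub1 (0.851), a checkpoint kinase, Rrm2 (0.839), a ribonucleotide reductase subunit, Asf1b (0.838), a histone chaperone, Clspn (0.835), a replication checkpoint mediator, and Ifi204 (0.830), an interferon-inducible gene. Without recurrence 1 their values were 0.696 to 0.806. The log2 3'/5' probe ratio, a sign of RNA quality, had a correlation of -0.016 with the module mean, and the log2 signal of an 18S ribosomal RNA probe set had 0.526 (0.462 without recurrence 1).

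**Figure D3:**
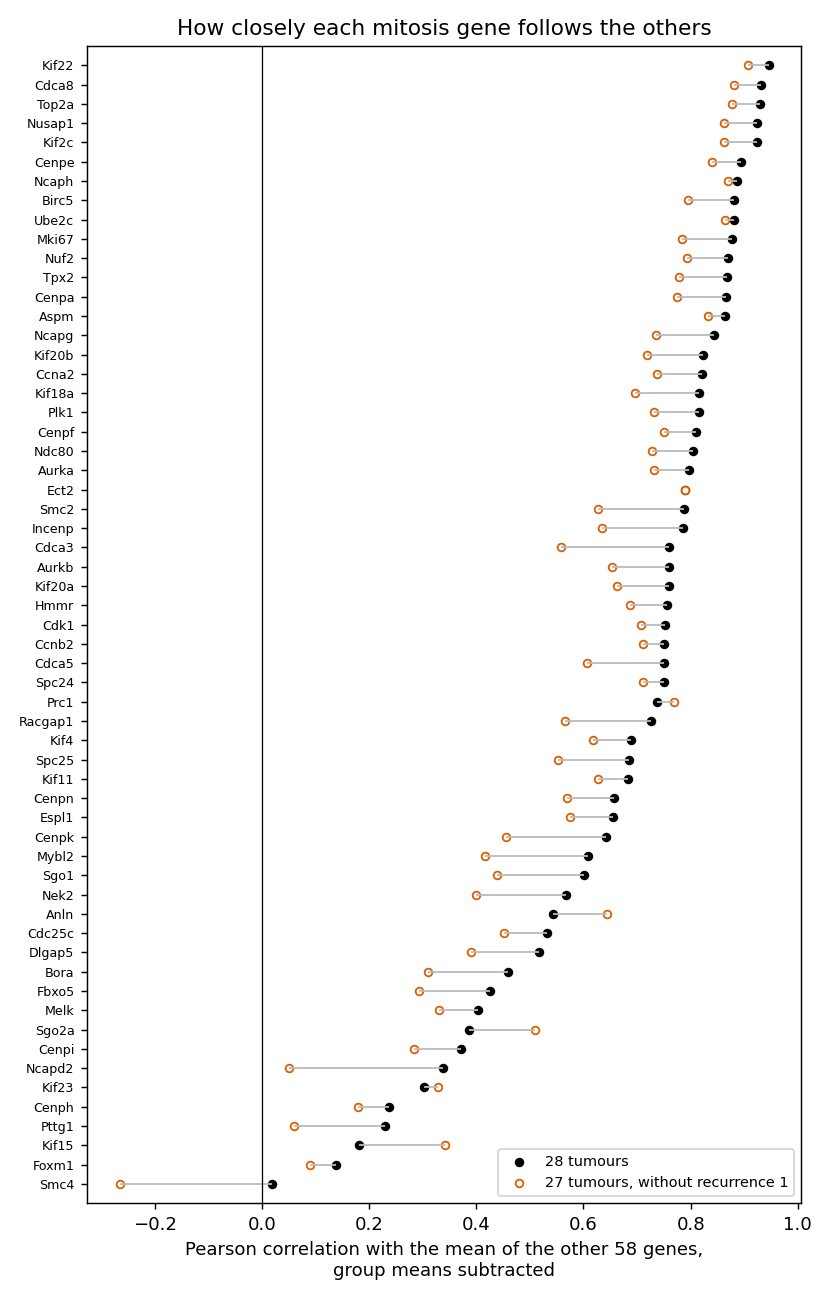
Correlation of each member with the mean of the other members over the 28 tumours, group means subtracted (filled points), and over 27 tumours without recurrence 1 (open points). With all tumours, values run from 0.018 for Smc4 to 0.946 for Kif22, with a median of 0.753.

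Around their group means, Pttg1 (SD 0.92 on the log2 scale), Kif22 (0.88) and Mki67 (0.85) varied most among the members. The APC inhibitor Fbxo5 (0.38), Smc4 (0.40) and the cytokinesis regulator Racgap1 (0.42) varied least. The medians were 0.61 for the members and 0.47 for all genes.

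The 18S probe set divides the tumours, and the division follows the groups in part. TI-KM primaries 1 to 6 and recurrences 1 to 4 had 18S signals of 12665 to 24001, and 13 other tumours (TI-K 6 to 8, TI-KM 7 to 14 and recurrences 5 and 6) had 5939 to 10857. TI-K primaries 1 to 5 have title numbers above 6000 and form a set of their own. The labels name no batch. The high-18S set was cut at a signal of 12000 in these data, and the set of TI-K 1 to 5 by title number. The 18S signals of TI-K 1 to 5 were 7616 to 8523, within the range of the 13 other tumours. Within TI-KM the module mean was 8.06 ± 0.25 (SD, n = 6) in the high-18S arrays and 7.66 ± 0.25 (SD, n = 8) in the remaining ones. In a limma fit of those 2 sets, 27 of 57 members passed an adjusted p of 0.05, or 47.4%, beside 42.3% of all genes. Called higher in the high-18S arrays were 24 of the 57, or 42.1%, against 30.3% of all genes. Within sets, the recurrences minus TI-KM primaries came to 0.040 in the high-18S arrays and 0.0075 in the remaining arrays. In the remaining arrays TI-KM minus TI-K primaries came to -0.27. Recurrences minus TI-K primaries came to -0.26 there, with 2 recurrences and 3 TI-K primaries.

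Primary tumours labelled with and without TRE-Mad2 were compared first, with the Mad2l1 values above as the check of the labels. Kif15, a kinesin that helps to keep the spindle bipolar, was higher in TI-KM primaries, and Anln, the anillin that scaffolds the contractile ring, was lower. These 2 of the 57 members that passed the filter on low signals were called at an adjusted p below 0.05 in limma, that is 3.51%, against 7.99% of the 14602 genes tested. Cdc25c and Dlgap5 did not pass the filter and were not tested. Of the 57 log2 differences 19 were positive; their median was -0.16, beside 0.08 over all genes. With the array sets as a block 6 were positive, with a median of -0.32, and among the remaining arrays 7 were, with a median of -0.29, while 49.8% and 49.3% of all genes were positive. For 42 of the 57 the 95% interval lay within a 2-fold change in either direction.

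Kif15 signals ran from 17.6 over a median of 28.5 to 87.7 in TI-K, from 25.9 over 98.9 to 261 in TI-KM, and from 68.2 over 181 to 308 in the recurrences, with 33.3 in normal lung. The groups overlapped, with TI-K lowest. The log2 difference between TI-KM and TI-K was 1.17 ± 0.32 (SE; limma adjusted p = 0.0256). With the array sets as a block it was 0.51 (limma adjusted p = 0.995), and among the remaining arrays it was 0.48 (limma adjusted p = 0.866); in both of these fits 0 members and 0% of all genes were called. Leaving out any 1 of TI-K primaries 2 to 5 also ended the call, with limma adjusted p of 0.0527 to 0.0566. Within TI-KM, the 6 high-18S arrays had 139 to 261 and the 8 others 25.9 to 103, without overlap.

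Anln signals ran from 345 over a median of 575 to 776 in TI-K, from 123 over 323 to 600 in TI-KM, and from 85.5 over 259 to 604 in the recurrences, beside 95.5 in normal lung. Its log2 difference between TI-KM and TI-K was -0.79 ± 0.24 (SE; limma adjusted p = 0.0439). The size was the same with the array sets as a block, -0.79, with a limma adjusted p of 0.974. A second Anln probe set gave 0.087 for the same comparison, and the Anln call was lost when TI-K primary 1, 2, 3, 4, 5, 6 or 8 or TI-KM primary 1, 2, 4, 5, 6, 7 or 14 was left out, with limma adjusted p of up to 0.0973.

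No other member was called in this comparison. The largest differences in the other roles were those of the kinetochore gene Cenpi (-0.91 ± 0.31, SE; limma adjusted p = 0.0609), Foxm1, which activates G2 and M phase genes (0.69 ± 0.25; adjusted p = 0.0758), the condensin gene Ncapd2 (-0.68 ± 0.31; adjusted p = 0.143) and Ccnb2 (-0.59 ± 0.27; adjusted p = 0.156). Pttg1 had 0.70 (adjusted p = 0.223), the passenger scaffold Incenp -0.30 (adjusted p = 0.365) and the APC's ubiquitin-conjugating enzyme Ube2c -0.34 (adjusted p = 0.514), all from limma. Foxm1 signals were 382 to 807 in the high-18S TI-KM arrays and 221 to 358 in the others, and its 3 other probe sets gave differences of -0.34 to -0.0053.

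Pttg1 encodes securin, which the APC destroys to free separase. Its signals fell into 2 clusters in every tumour group: 13 tumours had 685 to 1851 and 15 had 3504 to 5857, with no tumour between. This was the widest gap of any member that left at least 4 tumours on either side. The lower cluster held TI-K primaries 1 to 5, TI-KM primaries 1, 2, 5 and 7, and recurrences 2, 3, 5 and 6, and the normal lung lay between the clusters at 2124. All 5 TI-K arrays with high title numbers were in the lower cluster and the 3 other TI-K arrays in the upper one. In the recurrences Pttg1 had the largest difference of any member from TI-KM primaries, -1.01 ± 0.41 (SE; limma adjusted p = 0.313), and the gene's other probe sets gave -0.43 and 0.013.

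**Figure D4:**
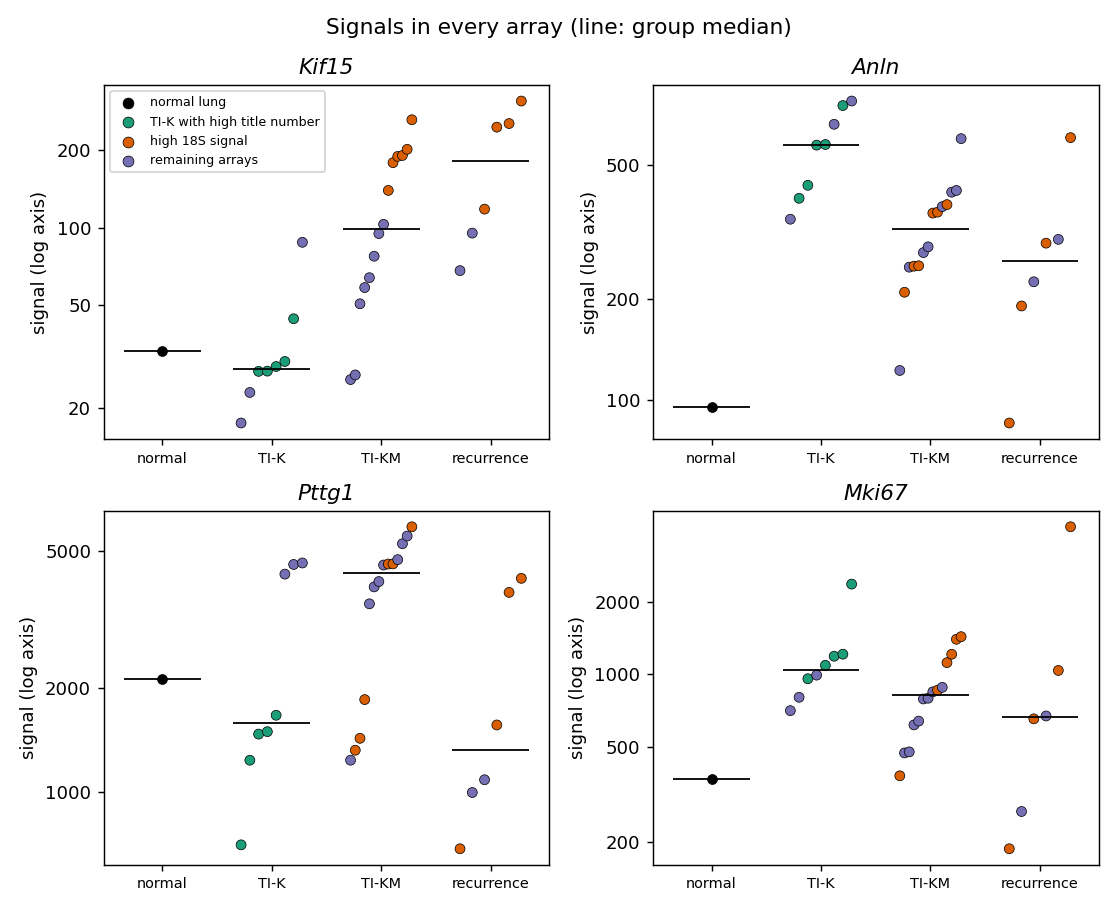
Signals of Kif15, Anln, Pttg1 and Mki67 in every array (log axis) by group, with the group median as a line and colours for the sets of arrays. Kif15 is lowest in TI-K, Anln highest in TI-K, Pttg1 leaves 1851 to 3504 empty among tumours, and Mki67 spans 188 to 4127 in the recurrences.

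The recurrences against TI-KM primaries ask what differs when a tumour of that genotype returns. None of the 57 members was called in limma, against 0.26% of all genes; at an unadjusted p under 0.05 there were 2, Pttg1 and Cenph, or fewer in share than the 12.4% over all genes. The median difference was 0.16, beside 0.04 over all genes, and 40 of 57 were positive. With the array sets as a block the median was 0.07 and 35 were positive. For 48 members the 95% interval stayed within 2-fold. By role, the largest differences were Kif15 0.59, Cenph 0.53 (limma adjusted p = 0.396), the kinase Aurkb of the passenger complex 0.47, Racgap1 0.37, the transcription factor Mybl2 0.37, the condensin gene Ncapg 0.35, Cdca3 0.24, a trigger of mitotic entry, and Birc5 0.16, the passenger subunit survivin. The limma adjusted p of these ran from 0.396 to 0.837. Without recurrence 1, Ncapg was at -0.098, Birc5 at -0.20 and Cdca3 at -0.076.

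The recurrences against TI-K primaries share the TI-K and recurrence arrays with the comparisons above. Kif15 was higher by 1.75 ± 0.39 (SE; limma adjusted p = 0.00417) and Anln was lower at -1.10 ± 0.30 (SE; limma adjusted p = 0.0134). These were 2 of 57 members, against 18.8% of all genes, and without recurrence 1 the count was 6. With the array sets as a block neither was called, beside 0.0959% of all genes (Kif15 0.76, limma adjusted p = 0.414; Anln -1.07, limma adjusted p = 0.333). Among the remaining arrays neither was called, beside 0.13% of all genes. Without recurrences 1 and 3 Anln was at -0.82 (limma adjusted p = 0.0993) and 1 member was called. For the fits that left recurrences out, no share of all genes stands beside the count.

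**Figure D5:**
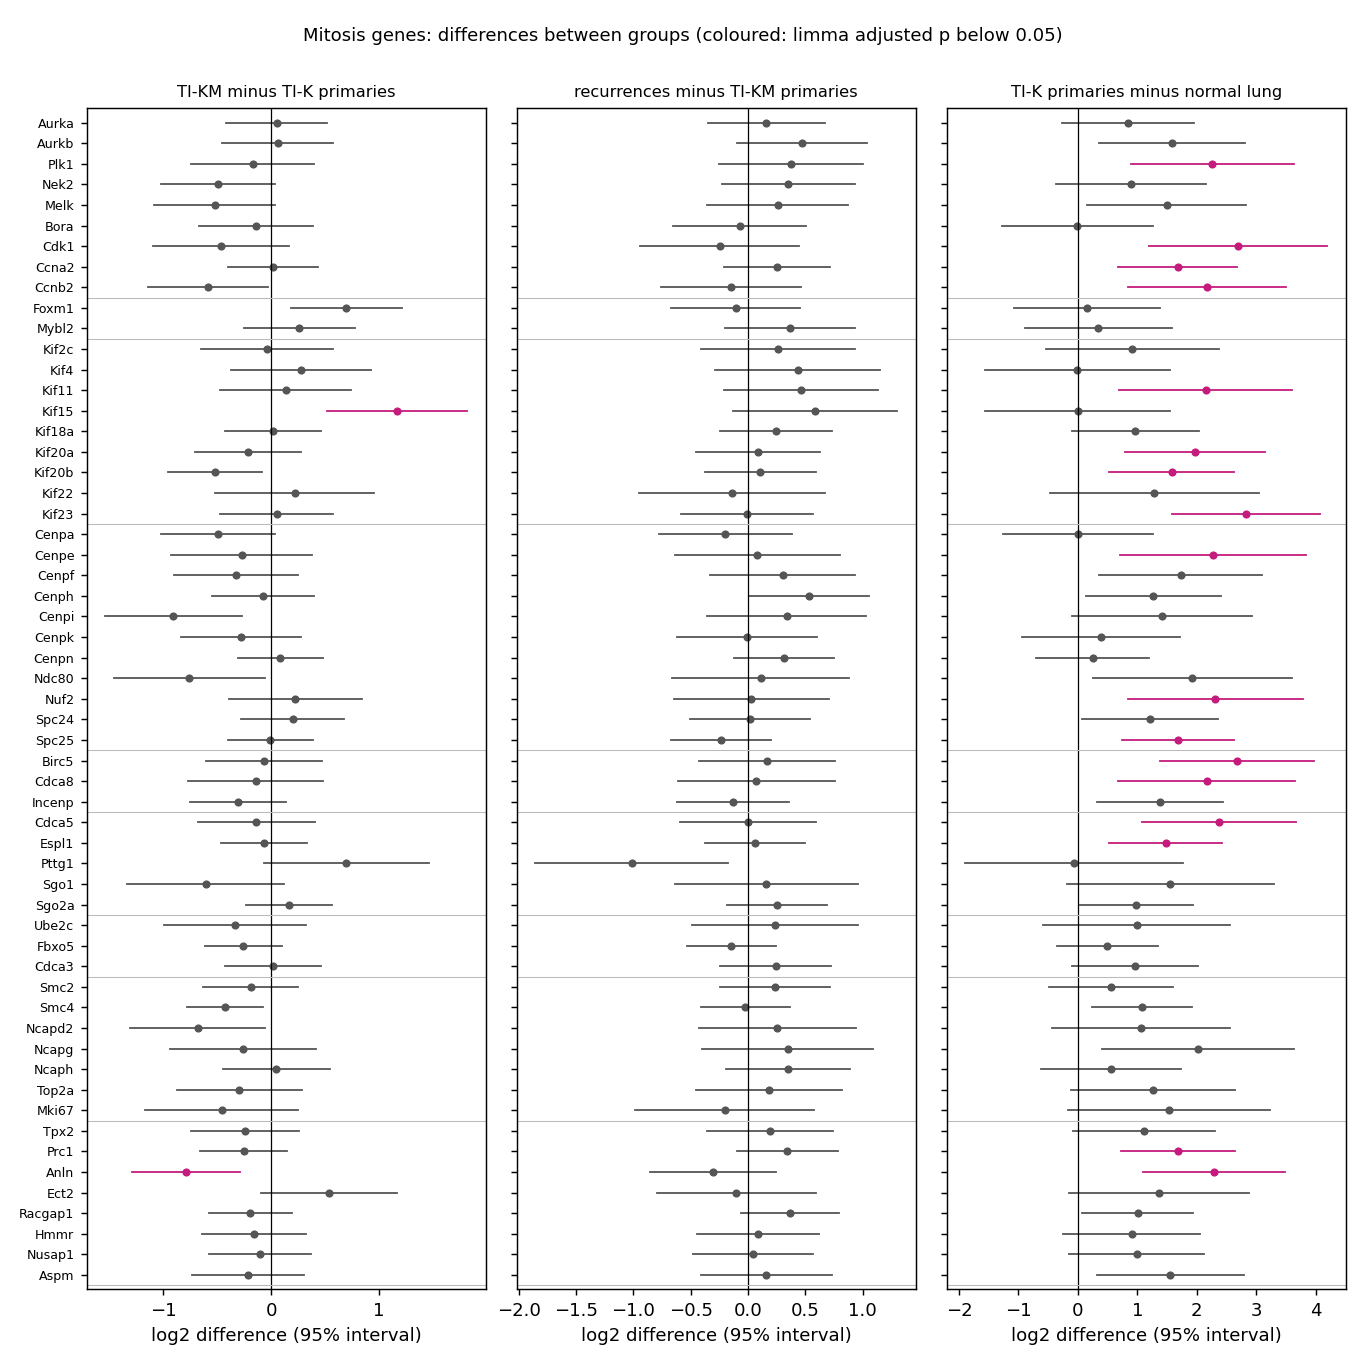
Log2 differences with 95% intervals of the 57 tested members in TI-KM minus TI-K primaries, recurrences minus TI-KM primaries and TI-K primaries minus normal lung (1 panel each), with called members in colour. Kif15 (1.17) and Anln (-0.79) are called in the first panel, none in the second and 17 in the third.

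Against the normal lung, 17 members rose in TI-K primaries and none fell, that is 29.8% of the 57 against 6.74% of all genes called higher in limma. In TI-KM primaries 12 rose and none fell (7.75% of all genes called higher), and in the recurrences 14 rose and none fell (6.46%). Without recurrence 2 the count was 9, with no share of all genes beside it. Among the remaining arrays 28 rose in TI-K primaries (12.7% of all genes called higher) and 19 in TI-KM primaries (14.1%); the normal lung's own 18S signal was 12569, above that of every one of these tumours. The median differences were 1.28, 1.07 and 1.22, beside 0.00, 0.10 and 0.14 over all genes. The normal lung is 1 array, whose spread was taken to equal that of the tumours, and each of the 3 comparisons uses it. Since the filter asks for signal in at least 6 arrays, every gene tested passed it through tumours. Genes high only in the normal lung were not tested, which limits the counts of falls. The members not tested, Cdc25c and Dlgap5, were at 2.02 and 11.7 in that array. Its marker sums also differed: the epithelial list was at 7781, against 18699 to 74950 in the tumours, and the erythroid list was at 5049, against 24.2 to 645. The part of cell makeup in these differences was not tested.

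The members with the largest TI-K differences in their roles were Kif23 at 2.83 ± 0.61 (SE; limma adjusted p = 0.0016), Cdk1 at 2.69 ± 0.74 (adjusted p = 0.0118), Birc5 at 2.68 ± 0.63 (adjusted p = 0.0037), the cohesion protector Cdca5 at 2.37 ± 0.63 (adjusted p = 0.00996), the kinetochore gene Nuf2 at 2.31 ± 0.72 (adjusted p = 0.0285) and Anln at 2.29 ± 0.58 (adjusted p = 0.00688). Kif23 was at 386 to 1206 in TI-K (median 769), 312 to 1576 in TI-KM (778) and 420 to 1336 in the recurrences (708), all above the 81.7 of the normal lung. Birc5 ranged from 92.6 to 280 in TI-K (median 191), 120 to 300 in TI-KM (166) and 68.8 to 786 in the recurrences (162). Its normal lung signal of 13.1 lay below the offset of 20. So did those of 12 other members, 11 of the 13 being tested, and 6 of them (Birc5, Plk1, Kif11, Kif20a, Cenpe and Nuf2) were among the 17 called in TI-K. The size of these differences depends on the offset. Kif23, Birc5, Cdk1's partner Ccna2, Cdca5, Nuf2, Spc25, Kif11, Plk1, Prc1, Kif20a and Espl1 were called in all 3 comparisons with the normal lung.

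By role, the calls in TI-K against the normal lung were 4 of 9 kinases and cyclins, 4 of 9 kinesins, 3 of 11 kinetochore genes, 2 of 3 passenger partners, 2 of 5 cohesion genes and 2 of 8 spindle and cytokinesis genes. None of the 7 condensin and chromosome structure genes, the 3 genes of the APC role or the 2 transcription factors was called. In simulated data this comparison recovered 5 of 100 2-fold and 41 of 100 4-fold changes, so a gene not called may still differ. The APC role holds Ube2c, Fbxo5 and Cdca3, and the APC subunits form a separate list below. With so few genes a role, these counts stand beside 6.74% of all genes called higher. The largest differences in those roles were those of Ncapg at 2.02 (limma adjusted p = 0.0912), whose normal lung signal of 8.48 was below the offset, Ube2c at 0.99 (limma adjusted p = 0.467) and Mybl2 at 0.35 (limma adjusted p = 0.784).

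Other cell-cycle lists were read beside these genes, and their counts stand beside 7.99% of all genes called in TI-KM minus TI-K, 0.26% in recurrences minus TI-KM and 18.8% in recurrences minus TI-K. The spindle checkpoint list (14 genes) had 0 calls in TI-KM minus TI-K primaries, 0 in recurrences minus TI-KM and 2 lower in recurrences minus TI-K, Zw10 (-0.62) and Bub1b (-1.49). The APC subunits and activators (15 genes) had 1 higher and 2 lower calls, then 0, then 3 lower, led by Anapc10 (-0.75) and Anapc1 (-0.68) in TI-KM minus TI-K. Among DNA replication genes (23 tested) there were 1 lower (Orc6, -0.58), then 0, then 2 higher calls (with Mcm6 at 0.85). The cell-cycle inhibitors (12 genes) had 1 higher call, Cdkn1b (0.92), where Btg1 was at 0.36 (limma adjusted p = 0.0642), then 0, then 1. The 15 G1 cyclin and E2F genes had none. With the array sets as a block, none of the genes named here was called. Cdkn1b (-0.17), Btg1 (-0.14) and Anapc1 (0.021) then had the opposite sign. The sign stayed for Anapc10 (-0.39), Orc6 (-0.15), Mcm6 (0.55), Zw10 (-0.20) and Bub1b (-0.90). The block fit called 0% of all genes in TI-KM minus TI-K and 0.0959% in recurrences minus TI-K, so it says little about single genes. The levels of the checkpoint and replication lists had correlations of 0.812 and 0.865 with the module mean, and the APC subunits 0.298. Without recurrence 1 these were 0.695, 0.773 and 0.110.

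The correlation of Mad2l1 with the module mean was 0.675, beside 0.676 for Cdc20, the APC activator held by the checkpoint, and 0.486 for Bub1b (0.161 without recurrence 1). Cdc20 was at 1033 to 4092 in TI-K, 774 to 2747 in TI-KM and 977 to 3456 in the recurrences. Bub1 was at 77.5 to 276, 45.9 to 170 and 12.6 to 427 in the same order, and Bub1b at 246 to 881, 98.6 to 330 and 5.92 to 831. Among cell type lists, the genes called between tumour groups with the smallest p were Pax5 (1.47, recurrences minus TI-K), Postn (-1.18, the same), Pdgfra (-1.10), Cd8a (1.13), Cdh1 (0.70) and Hba-a1 (1.17), the last 4 in TI-KM minus TI-K primaries. None of these was called with the array sets as a block, with limma adjusted p of 0.271 to 0.995, and Cd8a was at -0.14. The block fit called 0% of all genes in TI-KM minus TI-K and 0.0959% in recurrences minus TI-K. The next in their lists were not called: Cd79a (1.60), Cd3e (0.75) and Alas2 (1.25) in recurrences minus TI-K, and Krt8 (-0.43) in recurrences minus TI-KM.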

How the data were processed

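Per the submitters' processing notes, signals were made with MAS5; the deposited intensity values of all 29 arrays have a 2% trimmed mean of 500.003. Software version and annotation build are not given in the sources used here. Of 45101 probe sets, 34741 with 1 gene symbol in the platform annotation matched a current RefSeq gene. An offset of 20 was added and log2 taken, with no further normalization. Genes above the array's 40th percentile in at least 6 arrays were tested, by the probe set with the highest mean: 14602 genes. The 4 groups were fitted in 1 limma model (3.58.1, trend, R 4.3.3), and p-values were adjusted by Benjamini-Hochberg over all genes and called below 0.05. The code was tested on simulated data. Of 100 planted 2-fold changes, 59 to 63 were recovered between tumour groups and 5 to 8 against the normal lung. Of 100 planted 4-fold changes, 93 to 100 and 41 to 54 were recovered. The module mean uses all 59 members. The number of arrays limits the precision. Members, lists and array sets were chosen with earlier results of these data known. The genes named are those called between tumour groups, those with the largest difference in each role, those with the largest and smallest spread, the 8 most correlated other genes, and the 2 with the smallest p in each other list. The promoters printed, the Pttg1 clusters and recurrences 1 and 3 were singled out after their values were seen.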

Additional observations from a re-analysis of the deposited data

Results flagged for a closer look

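In 120 series of 1 gene in 1 group (59 members and the module mean, each in TI-K primaries and in recurrences), 6 had an array far from the others by Dixon's test, and chance gives about 1 in 20. In TI-K primaries these were Ccna2, at 550 in TI-K 8, and Mki67, at 2381 in TI-K 5. In the recurrences Ccnb2 was low at 35.48 in recurrence 3, and Kif2c at 1336, Fbxo5 at 419 and Cdca3 at 698.8 were high in recurrence 1. The 14 TI-KM primaries were not tested in this way.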

How the results depend on the processing

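No paired analysis was possible because the replicate numbers only order the samples. Without the recurrences with the highest and the lowest module mean, a choice made after seeing the data, 1 member was called in recurrences minus TI-K primaries and 20 in TI-KM minus normal lung. With the array sets as a block, or among the remaining arrays, 0 members were called between TI-KM and TI-K and 0 between recurrences and TI-K. TI-KM minus TI-K also had 1 call without the filter, with a filter at the 60th percentile and with the 2 arrays of one title number averaged. Recurrences minus TI-K had 1 with that stricter filter and 5 with the mean of all probe sets of a gene. Against the normal lung, an offset of 100 left 9, 5 and 6 calls in TI-K, TI-KM and recurrences. The remaining arrays gave 28 in TI-K and 19 in TI-KM, beside 12.7% and 14.1% of all genes called higher. The 3'/5' ratio as a covariate gave 7 in the recurrences. The other counts in this paragraph have no share of all genes beside them. They thus do not tell whether the members or all genes changed. The module mean over normal lung was 1.68 in TI-K and 1.53 in TI-KM with an offset of 1, and 0.81 and 0.73 with an offset of 100. The cause was not tested. Leaving out 1 array gave 0 to 3 calls in TI-KM minus TI-K (0 without TI-K 2, 3, 4 or 5), 0 to 0 in recurrences minus TI-KM, 2 to 6 in recurrences minus TI-K, and 13 to 20, 12 to 17 and 9 to 18 against normal lung. The module mean then differed by -0.17 to -0.057, -0.13 to 0.29 and -0.26 to 0.16 between tumour groups and by 1.22 to 1.33, 1.12 to 1.21 and 1.03 to 1.45 from normal lung; its SD was 0.22 to 0.30 in TI-K, 0.27 to 0.33 in TI-KM and 0.44 to 0.82 in the recurrences.

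Single differences of members that changed sign were not called in either setting. In TI-KM minus TI-K, Incenp came to 0.22 with the mean of all probe sets, and Pttg1 to -0.41 with the array sets as a block and -0.24 among the remaining arrays. In recurrences minus TI-KM, Birc5 came to -0.037 among the remaining arrays and -0.022 with the 3'/5' ratio as a covariate. Cdca3 came to -0.014 among the remaining arrays and -0.052 without recurrences 1 and 3, and Mybl2 to -0.061 and -0.00816. Leaving out 1 array gave -0.20 to 0.43 for Birc5, -0.076 to 0.34 for Cdca3 and -0.098 to 0.61 for Ncapg. Signals below the offset in normal lung limit the size of those differences.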
